A study of Mus musculus with 2 samples.

Results

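The 4 Hox clusters of the mouse hold miRNA genes among the Hox genes themselves, and 6 of these had a row in the deposited tables: Mir10a, Mir10b, Mir196a-1, Mir196a-2, Mir196b and Mir615. They were chosen by gene symbol and made up 6 of the 1973 gene rows. The tissue was the embryonic facial prominence of B6NCrl mouse embryos at 12.5 days, and its small RNA was sequenced as microRNA libraries. A single group was analysed, with 2 biological replicates, each a pool of male and female embryos of this strain with no allele or treatment named. Replicate 2 was made from 88 embryos and replicate 1 from 120 embryos, so the data give levels within the tissue and the difference between these pools.

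Hox genes are transcription factors that pattern the body from head to tail, and their order along each cluster follows the order of the body regions in which they act. The neural crest that builds the face in front of the second pharyngeal arch is known for expressing no Hox genes, whereas hindbrain, neck and trunk do. The miRNA genes inside the clusters are transcribed from the same strand as their Hox neighbours. Some of them are known to repress Hox messengers, and the cleavage of the Hoxb8 messenger by miR-196 is the best known case.

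By their mature strands the 6 genes fell into 3 groups. The strands below are from RefSeq on GRCm38.p6, which held a mature strand for 6 of 6 genes, and capitals mark the seed, bases 2 to 8, through which a miRNA recognises its target.
mmu-miR-10b-5p: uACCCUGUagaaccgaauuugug
mmu-miR-10a-5p: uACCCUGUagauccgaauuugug
mmu-miR-196b-5p: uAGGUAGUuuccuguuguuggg
mmu-miR-196a-5p: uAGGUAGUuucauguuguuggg
mmu-miR-615-3p: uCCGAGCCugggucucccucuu
mmu-miR-615-5p: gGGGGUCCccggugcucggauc
The strands of Mir10a and Mir10b share the seed ACCCUGU and differ by 1 substitution, U12A, counted from the 5′ end of miR-10a. The strands of Mir196a and Mir196b share the seed AGGUAGU and also differ by 1 substitution, A12C, counted from the 5′ end of miR-196a. No other mature name in the RefSeq table carried either of these seeds. The counts do not say which arm of a hairpin gave the reads of any member. Both strands are shown for Mir615 and the 5p strand alone for the others.

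Mir196a-1 and Mir196a-2 give the same miR-196a-5p strand, which stood in 2 RefSeq hairpins, and their hairpins are printed here with the mature strands in capitals to show what they share.
Mir196a-1 hairpin, GRCm38 chr11:96265164-96265265 (+): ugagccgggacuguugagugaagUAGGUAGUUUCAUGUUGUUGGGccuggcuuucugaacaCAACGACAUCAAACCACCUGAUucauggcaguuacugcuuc
Mir196a-2 hairpin, GRCm38 chr15:102973350-102973434 (+): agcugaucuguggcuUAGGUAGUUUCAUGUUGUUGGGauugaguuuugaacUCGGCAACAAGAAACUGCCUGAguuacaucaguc
The longest stretch in common was the 22-base miR-196a-5p strand itself. The strands of the other arm, miR-196a-1-3p and miR-196a-2-3p, differed at 17 of 22 positions. Reads that map to several places were listed apart and counted to no gene, so the counts of both Mir196a genes leave out any read that fits this shared strand. The longest stretch that Mir10a and Mir10b hairpins share was 15 bases, and for the Mir196b hairpin the longest stretch shared with any other was 12 bases. The mismatches allowed in alignment are not known. Whether reads passed between miR-10a-5p and miR-10b-5p, or between miR-196a-5p and miR-196b-5p, which differ by 1 substitution each, was not tested. RefSeq held no hairpin for Mir615, so what it shares with other hairpins was not searched.

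All 6 genes lay between the outermost coding sequences of a Hox cluster, and no other of the 1894 gene rows with a known position did. Mir10b (ENSMUSG00000065500.2, chr2:74726070-74726137, + strand, GRCm38) lay in the HoxD cluster, in an intron of both Hoxd4 and Hoxd3 and 1142 bases before the Hoxd4 coding sequence. Mir10a (ENSMUSG00000065519.1, chr11:96317165-96317274, +) lay in the HoxB cluster with no host gene on its strand, 1496 bases before the Hoxb4 coding sequence. Both members of the miR-10 pair thus sit at the same paralogous place, upstream of a group 4 Hox gene. Mir615 (ENSMUSG00000076010.1, chr15:103014910-103015001, +) lay in the HoxC cluster, in an intron of Hoxc5 between its coding exons.

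The miR-196 genes sit further towards the trunk end of the clusters, between Hox genes of groups 9 and 10 or, in HoxB, between Hoxb9 and Hoxb13. Mir196b (ENSMUSG00000065443.1, chr6:52230081-52230165, - strand) overlapped an annotated exon of Hoxa9 and lay 3977 bases before its coding sequence. Mir196a-2 (ENSMUSG00000065488.1) lay 8219 bases before the Hoxc9 coding sequence, within a long annotated transcript of Hoxc5. Mir196a-1 (ENSMUSG00000065546.1) lay 6277 bases before the Hoxb9 coding sequence with no host gene.

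**Figure D1:**
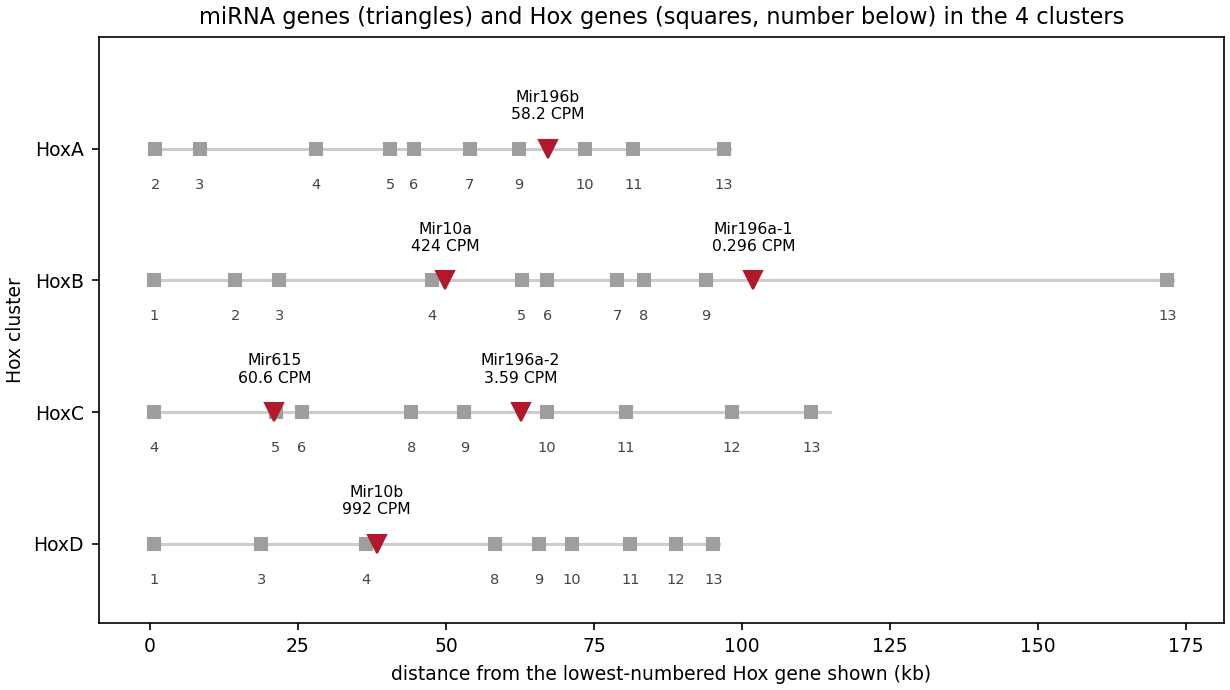
Position of the miRNA genes (triangles, with mean CPM over both libraries) and of the Hox genes (squares at the middle of each coding span, with their numbers below) along each cluster, as distance in kb from the lowest-numbered Hox gene shown for that cluster. The highest levels from uniquely placed reads, 992 CPM for Mir10b and 424 CPM for Mir10a, stand beside group 4 Hox genes.

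Levels are in CPM, reads on the strand of the gene per 1000000 such reads over all genes. Reads of a mature strand are 22 or 23 bases long for every member, so CPM were not divided by hairpin length. How evenly the libraries captured different strands was not tested, so levels of different genes are compared in reads and not in molecules. Detection was set at a minimum of 10 counts per library, equal to 1.69 CPM for replicate 2 and to 2.12 CPM for replicate 1. Replicate 2 held 5929220 own-strand counts on genes and replicate 1 held 4719337. Of all reads, 27.95% mapped to several places in replicate 2 and 26.02% in replicate 1. Of 1973 gene rows 395 were detected, with a median of 122 CPM.

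The miR-10 pair made up nearly all of the uniquely placed reads of the Hox-locus genes, which leave out reads of the shared miR-196a-5p strand. Mir10b had 6654 counts or 1122 CPM in replicate 2 and 4071 counts or 863 CPM in replicate 1, a mean of 992 ± 184 CPM (SD, n = 2). The exact Clopper-Pearson intervals at 95% were 1095 to 1150 CPM and 836 to 890 CPM, and they cover counting error only. The counts do not show whether molecular identifiers were used. Mir10a had 3004 counts or 507 CPM in replicate 2 and 1611 counts or 341 CPM in replicate 1, a mean of 424 ± 117 CPM (SD, n = 2). Both genes lay above the median of the detected genes, at rank 101 for Mir10b and rank 138 for Mir10a. Together they held 92.1% of the counts of the 6 genes in replicate 2 and 91.9% in replicate 1.

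Mir615 and Mir196b formed a middle tier. Mir615 had 428 counts or 72.2 CPM in replicate 2 and 231 counts or 48.9 CPM in replicate 1 (mean 60.6 ± 16.4 CPM, SD, n = 2). Mir196b had 372 counts or 62.7 CPM in replicate 2 and 253 counts or 53.6 CPM in replicate 1 (mean 58.2 ± 6.46 CPM, SD, n = 2). The values of the 2 genes overlapped and their order differed between the libraries, so their levels were not told apart. They ranked 240 and 243 among the detected genes, below the median.

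The Mir196a genes had few counts of their own. Mir196a-2 had 25 counts or 4.22 CPM in replicate 2 and 14 counts or 2.97 CPM in replicate 1, just above the detection minimum, at rank 367. Mir196a-1 had 1 count in replicate 2 and 2 counts in replicate 1, at 0.169 CPM (interval 0.00427 to 0.940) and 0.424 CPM (interval 0.0513 to 1.53), and was the only member not detected. How many of the reads with several mapping places were miR-196a-5p was not tested, so both levels are those of uniquely placed reads alone. No member had a read on the strand opposite to it in either library.

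Ordered by level from uniquely placed reads, the genes ran Mir10b, Mir10a, then Mir615 and Mir196b, then Mir196a-2 and Mir196a-1. Apart from Mir615 and Mir196b, the values of neighbours in this order did not overlap over the 2 libraries. Mir10b exceeded Mir10a 2.22 times in replicate 2 and 2.53 times in replicate 1, and Mir10a exceeded Mir615 by 7.02 and 6.97 times. Mir10b, which shares its seed with Mir10a, exceeded Mir196b by 17.9 and 16.1 times. By cluster, HoxD held 63.5% of the members' counts in replicate 2 and 65.9% in replicate 1, HoxB 28.7% and 26.1%, HoxC 4.32% and 3.96%, and HoxA 3.55% and 4.09%. These shares leave out reads of the miR-196a-5p strand, which fit both Mir196a-1 in HoxB and Mir196a-2 in HoxC. In bulk tissue, fewer cells of a type and less RNA per cell cannot be told apart, so these levels do not say how many cells carried each miRNA.

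**Figure D2:**
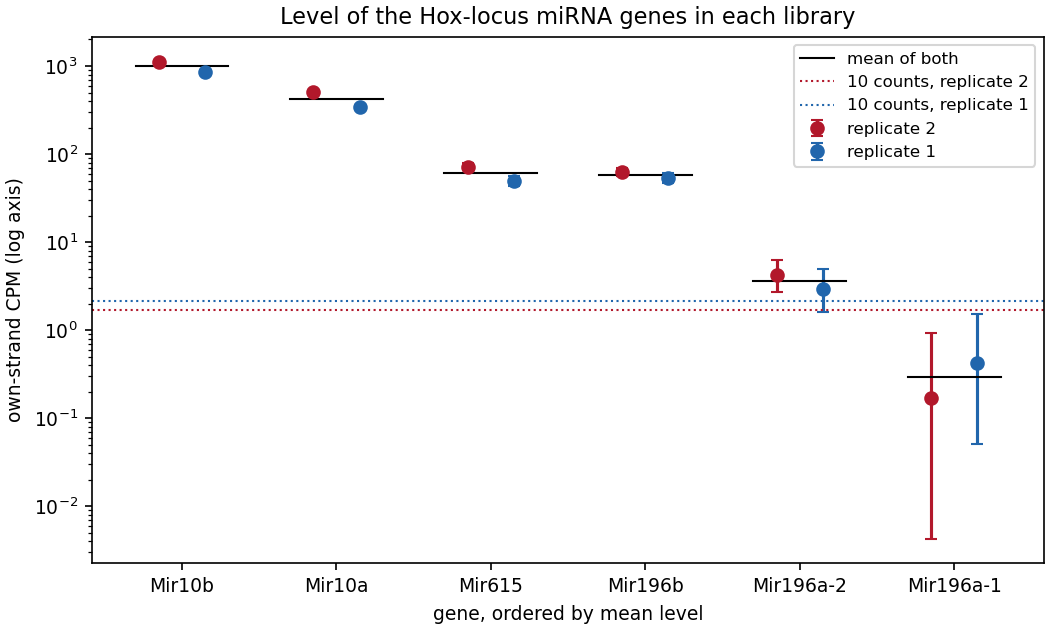
Own-strand CPM of each gene on a log axis in replicate 2 (red) and replicate 1 (blue), with exact 95% counting intervals, the mean of both libraries (black line) and the level of 10 counts (dotted). Levels span from 1122 CPM for Mir10b in replicate 2 to 0.169 CPM for Mir196a-1 in replicate 2.

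All 6 genes together held 0.177% of gene counts in replicate 2 (interval 0.173 to 0.180) and 0.131% in replicate 1 (interval 0.128 to 0.134). The share leaves out reads of the shared miR-196a-5p strand. It is small beside those of the mesenchyme and ectoderm lists, but not beside those of the other marker lists. The 6 markers of facial mesenchyme and cartilage, all detected and led by Mir214 of skeletal mesenchyme, took up 6.42% of gene counts in replicate 2, against 6.47% in replicate 1. The 7 markers of surface ectoderm and epithelium, all detected and led by Mir429 and Mir205, held 3.58% and 3.08%. In the same order, markers of the neural tube and neurons held 0.170% and 0.182%, of eye 0.167% and 0.0891%, and of striated muscle 0.155% and 0.118%. Leukocyte markers held 0.0512% and 0.0531%, and erythroid markers 0.0331% and 0.0223%.

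The closest relatives of the miR-10 pair outside the Hox clusters are Mir99a, Mir99b and Mir100, which descend from the same ancient family. Their strands are shown to compare the seeds.
mmu-miR-99a-5p: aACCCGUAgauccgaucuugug
mmu-miR-99b-5p: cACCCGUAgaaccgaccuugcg
mmu-miR-100-5p: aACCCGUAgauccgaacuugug
With miR-10a-5p moved by 1 base, 19 of 22 positions matched miR-100-5p, 18 matched miR-99a-5p and 15 matched miR-99b-5p, yet the seeds differ. The miR-10 pair summed to 1629 CPM in replicate 2 and 1204 CPM in replicate 1, against 112164 and 123297 CPM for the 3 relatives. In reads, the relatives were thus 68.9 times higher in replicate 2 and 102 times higher in replicate 1. The gap had the same direction in both libraries (exact permutation test within libraries, two-sided, p = 0.5, the smallest that 2 libraries allow). It exceeded the spread between the libraries, in which the sum of the relatives had an SD of 7872 CPM and that of the miR-10 pair an SD of 300.4 CPM.

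**Figure D3:**
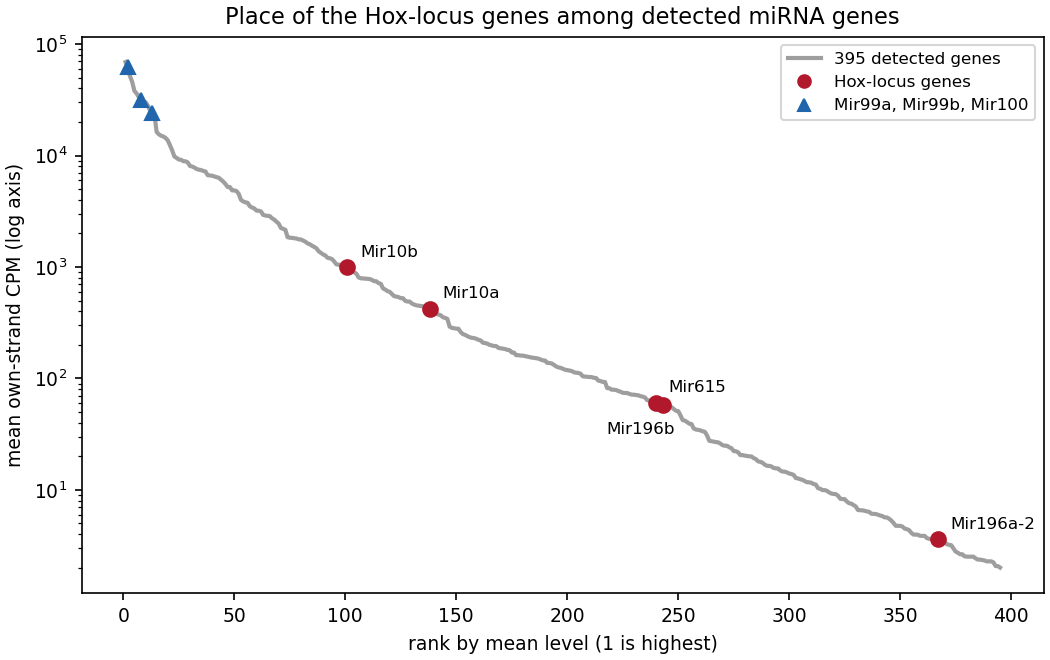
Mean own-strand CPM (log axis) of the 395 detected genes in order of level (grey), with the 5 detected Hox-locus genes (red circles) and Mir99a, Mir99b and Mir100 (blue triangles). The Hox-locus genes run from rank 101 to rank 367, and their relatives stand at ranks 2, 8 and 13.

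Between the pools, all 5 detected Hox-locus genes had higher values in replicate 2, and for 3 of them the difference went beyond counting error. Over all detected genes, 49.9% had a higher value in replicate 2 and 51.9% differed beyond counting error in either direction, 27.1% being higher in replicate 2 (exact binomial test, Benjamini-Hochberg adjusted p of at most 0.05 over 395 genes). None of the 5 reached a 2-fold difference, a limit that 4.05% of detected genes passed together with the test. The direction was known when the genes were chosen, so these counts describe the pools. The test compares 2 libraries and not conditions, and the pools are separate biological samples whose own spread it does not cover.

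Ratios below set replicate 2 over replicate 1, and each p is from the exact binomial test with Benjamini-Hochberg adjustment. For Mir10a the log2 ratio was 0.56, with a 95% interval of 0.48 to 0.65 (exact binomial adjusted p = 4.05e-37). Mir615 had a log2 ratio of 0.56 (interval 0.32 to 0.79, exact binomial adjusted p = 6.17e-06). Mir10b had a log2 ratio of 0.37 (interval 0.32 to 0.43, exact binomial adjusted p = 1.07e-38), and its interval did not overlap that of Mir10a. The seed partners thus did not differ between the pools to the same degree, as far as counting error goes. Mir196b had a log2 ratio of 0.22 (interval -0.01 to 0.46, exact binomial adjusted p = 0.114) and Mir196a-2 one of 0.50 (interval -0.50 to 1.56, exact binomial adjusted p = 0.460), and neither passed the test.

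The median log2 ratio of the 5 genes was 0.50, beside -0.0026 over all detected genes. That median is the ratio of Mir196a-2, which has few counts, and without this gene, an alternative chosen after its value was seen, the median of the other 4 was 0.46. Set against all detected genes, 4.05% had a log2 ratio as high as that of Mir10a, 4.56% as high as Mir615, 12.7% as high as Mir10b and 24.1% as high as Mir196b. When edgeR's exact test was run with a coefficient of variation between pools fixed at 0.2, 0 of the 5 passed, with unadjusted p from 0.173 for Mir10a to 0.612 for Mir196b and an adjusted p of 1 for each. A p that misses the threshold in that setting does not show that the pools were alike.

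**Figure D4:**
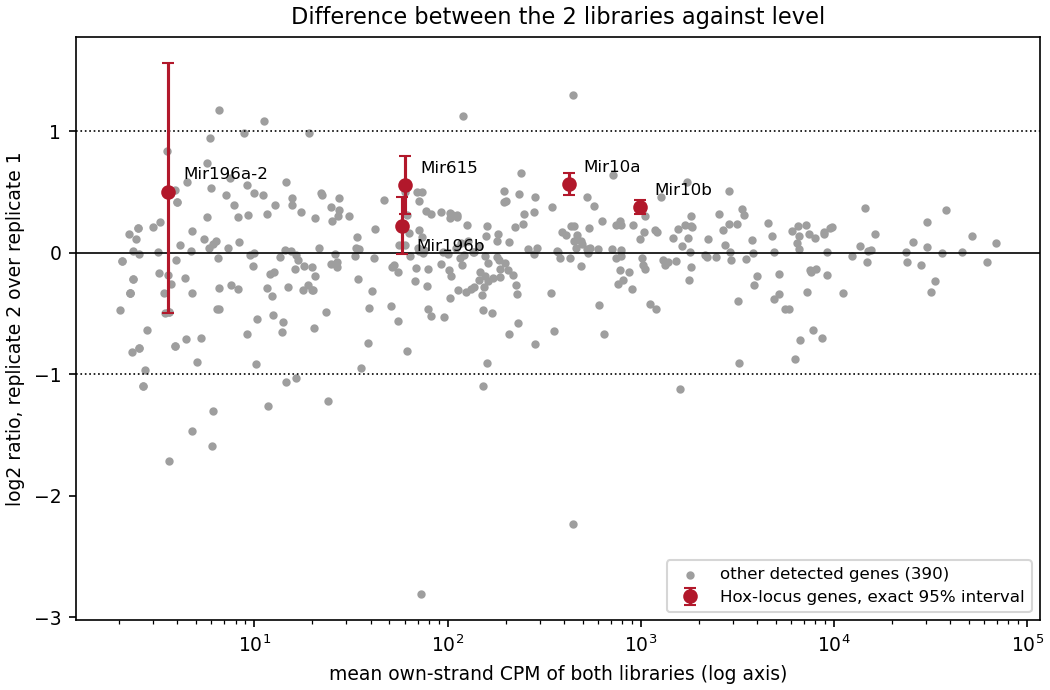
Log2 ratio of replicate 2 over replicate 1 against mean CPM (log axis) for the 5 detected Hox-locus genes (red, exact 95% interval) and the other 390 detected genes (grey), with dotted lines at a 2-fold difference. The red points lie between 0.22 and 0.56, above 0 and under the 2-fold line.

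Some marker lists also had a higher sum in replicate 2, and their part in the difference of the Hox-locus genes was not tested. All 3 eye genes were detected, summed to 1671 CPM in replicate 2 and 891 CPM in replicate 1, and had a median log2 ratio of 1.12, with Mir211 and Mir184 at least 2-fold higher in replicate 2 by the exact binomial test. The surface ectoderm list summed to 35800 CPM in replicate 2 and 30805 CPM in replicate 1 (median 0.21), with 6 of 7 genes higher in replicate 2 beyond counting error and 1 lower. The erythroid list, with 3 of 3 genes detected, summed to 331 and 223 CPM (median 0.33, 1 gene higher beyond counting error). Beside these counts, 27.1% of all detected genes were higher in replicate 2 beyond counting error. With the 2-fold limit added, 4 of the 395 detected genes were higher in replicate 2.

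Markers of the neural tube and neurons were counted from uniquely placed reads too, which limits this list. In RefSeq, 10 of its 15 measured genes share a mature strand with another gene, Mir9-2 and Mir9-3 among them, as do 3 of the 6 mesenchyme markers, and the Mir124a copies are known to share theirs. Of the 15 genes 11 were detected, and Mir9-2 and Mir124a-1 were at 0 in both libraries, which under this counting does not show that their strands were absent. The list summed to 1695 CPM in replicate 2 and 1823 CPM in replicate 1. Its median log2 ratio was -0.16, with 0 genes higher and 4 lower in replicate 2 beyond counting error. Over all detected genes, 51.9% differed beyond counting error in either direction and 27.1% were higher in replicate 2. The part of neural tissue in the difference of the Hox-locus genes was not tested. The copies of Mir133a and of Mir1a are likewise known to share mature strands, and Mir133a-2 was at 0. Of the striated muscle markers 5 of 8 were detected and they went both ways, from -1.71 for Mir1b to 0.98 for Mir133b. Their median was -0.81, with 2 genes higher and 3 lower in replicate 2 beyond counting error. Of those lower, Mir1b and Mir208a were at least 2-fold lower. The list summed to 1552 and 1182 CPM in replicates 2 and 1, of which Mir206 alone held 1472 and 1068 CPM. The leukocyte list, with 4 of 4 detected, summed to 512 and 531 CPM (median -0.00), and the mesenchyme list had a median of 0.06.

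**Figure D5:**
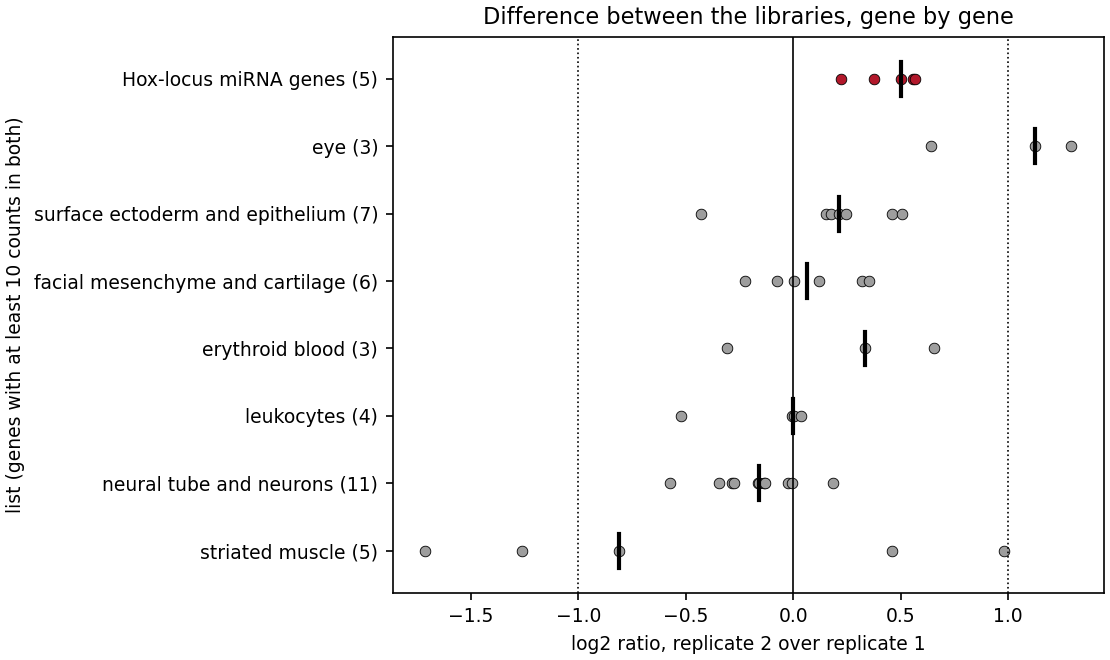
Log2 ratio of replicate 2 over replicate 1 for each detected gene of the Hox-locus list (red) and of 7 marker lists (grey), with the median of each list as a black bar and dotted lines at a 2-fold difference. The medians run from -0.81 for striated muscle to 1.12 for eye, with 0.50 for the Hox-locus genes and -0.16 for the neural list.

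Over the 2 libraries, the detected gene nearest to each member in level was found as the smallest distance in log2 CPM. Mir302c, of the early embryonic miR-302 cluster, was nearest to Mir196b, at 62.6 CPM in replicate 2 against 53.2 CPM in replicate 1. Mir29c was nearest to Mir615 with 70.7 and 49.8 CPM. Mir434 was nearest to Mir10b with 1168 and 945 CPM, Mir16-2 to Mir10a with 469 and 400.5 CPM, and Mir669h to Mir196a-2 with 4.55 and 3.18 CPM. The distances rest on 2 values per gene and are a description.

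The 3′ untranslated regions of the Hox genes hold complements of these strands, and they are given as sequence facts, since no messenger was measured here. In GENCODE M21 on GRCm38, the longest 3′ untranslated region of each of 21659 coding genes was searched on the messenger strand, 38 Hox genes among them. The Hoxb8 region was the only one that paired with miR-196a-5p over at least 18 of its bases without gaps, with 21 Watson-Crick pairs and 1 G:U pair. The site is shown with the bases opposite the seed in capitals.
Hoxb8, chr11:96284888-96284909 (+): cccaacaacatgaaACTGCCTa
Against miR-196b-5p the same site had 20 Watson-Crick pairs, 1 G:U pair and 1 unpaired position. For that strand 4 of the 21659 regions reached at least 18 pairs, and Hoxb8 was the only Hox gene among them.

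Exact matches to the seeds were also counted. ACTACCT, the complement of the miR-196 seed, stood in the first 500 bases of 7 of the 33 Hox regions at least that long (21.2%), beside 1.97% of all 14284 regions at least that long. The 7 genes were Hoxa4, Hoxa5, Hoxa7, Hoxa9, Hoxb6, Hoxb7 and Hoxc8, and over whole regions Hoxb1 held it too. These are paralogs and are not independent, and ACTACCT overlaps CTACCTC, the complement of the let-7 seed, in 6 letters. ACAGGGT, the complement of the miR-10 seed, stood in 1 of the 33 (3.03%), Hoxa3, beside 4.77% of all regions, and over whole regions in Hoxa3, Hoxb3 and Hoxd1. GGCTCGG, the complement of the miR-615-3p seed, stood in 0 of the 33 beside 1.01% of all, and over whole regions in Hoxb4 alone.
Among these exact seed matches, the Hox site with the most Watson-Crick pairs for each seed is shown, with the seed match in capitals.
Hoxa9, to miR-196b-5p, chr6:52223900-52223921 (-): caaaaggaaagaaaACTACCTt
Hoxd1, to miR-10a-5p, chr2:74764930-74764952 (+): tagcggaacaaatccACAGGGTa
Hoxb4, to miR-615-3p, chr11:96320843-96320864 (+): aacaaatgaggccaGGCTCGGc
These had 15, 13 and 13 Watson-Crick pairs. A match is a description of the letters and not a shown target.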

How the data were processed

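Small RNA reads of 2 libraries were counted by the authors. Per the library descriptions deposited with the tables, alignment was to mm10 with GENCODE annotation M4. The aligner and counting tool are not given in the sources used here. The deposited values are raw whole-number counts for each gene, 1 table per library, in 3 columns (both strands, own strand, opposite strand). The 4 summary entries were kept out of library sizes. Entries for unmapped reads, reads with several mapping places and reads outside genes made up 19.4%, 27.9% and 4.72% of replicate 2, and 25.7%, 26.02% and 5.57% of replicate 1, while the ambiguous entry was 0. Each gene count joins both arms of its hairpin. GENCODE M21, which uses GRCm38 (the same assembly as mm10), gave symbols and positions for 1894 of 1973 identifiers, and sequences were read from RefSeq on GRCm38.p6 or the GENCODE transcripts.

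CPM used the sum of own-strand counts over gene rows. The upper limit that 0 counts allow is 3 counts, equal to 0.506 CPM for replicate 2 and to 0.636 CPM for replicate 1. Genes with at least 10 counts in both libraries were compared with a two-sided exact binomial test against the share given by TMM library sizes (edgeR 4.0.16, R 4.3.3, SciPy 1.17.1), adjusted by Benjamini-Hochberg. A call needed an adjusted p of at most 0.05 and a 2-fold difference. The code was tested on simulated data. Alternatives were plain sums, DESeq2 1.42.0 size factors, both strands, a minimum of 100 counts or none, a fixed coefficient of variation of 0.2 in edgeR's exact test, a wider denominator and leaving out each library. The members, the 7 marker lists and the tests were chosen with earlier results of these data known. Of 49 markers, 3 (Mir9-1, Mir1a-2 and Mir142) had no row under that symbol. Genes named besides the members were those in the Hox clusters, Mir99a, Mir99b and Mir100, the nearest gene to each member, and markers. A Hox gene left out of the sequence search and the cluster map is not reported here.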

Additional observations from a re-analysis of the deposited data

How the results depend on the processing

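No paired analysis was possible because a single group was analysed and its replicates have no partner group. The summed level of the 6 genes, 1539 CPM, was 1768 CPM without replicate 1 and 1310 CPM without replicate 2. It was 954 CPM with reads that map to several places added to the denominator, which is larger by construction and lowered the level of every member. Both-strand counts and TMM library sizes moved the summed level by less than the SD of the libraries. The count of 16 genes that differed between the libraries, 4 with the higher value in replicate 2 against 12 in replicate 1, was 6 with a minimum of 100 counts, where 277 genes were tested, 2 in edgeR's exact test at a coefficient fixed at 0.2, and 24 with no minimum, where 781 genes were tested. The median log2 ratio of the Hox-locus genes tested stayed positive under each alternative tried. For the 5 detected genes, 29 of 29 alternative log2 ratios stayed positive and under 2-fold, from 0.18 to 0.58. Mir196a-1, which enters when there is no minimum, is not among them, and its 1 count in replicate 2 was lower than its 2 counts in replicate 1. Under the 5 alternatives that kept the exact binomial test, Mir10a, Mir10b and Mir615 were the members beyond counting error, and in edgeR's test with the fixed coefficient 0 were. Leaving out a library leaves no difference to compute. Low counts limit Mir196a-1 and Mir196a-2 most, at 1 to 25 counts a library. Reads that map to both were counted to no gene, whatever the depth.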
